A study of Homo sapiens with 15 samples.

Results

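The genes described here are 10 myosin heavy and light chains, chosen by name from the 48777 genes of the deposited tables through their GENCODE symbols. MYH6, MYH7 and MYH7B are heavy chains of striated muscle. MYL7 and MYL2 are the atrial and ventricular regulatory light chains, and MYL4 and MYL3 the atrial and ventricular essential light chains. MYH9 and MYH10 are nonmuscle heavy chains, and MYL9 is a regulatory light chain of smooth muscle and nonmuscle cells. All 10 had counts in the tables, and 7 to 10 of them passed the filter on low counts, depending on the days compared.

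The study differentiated H1, an established human embryonic stem cell line, towards committed cardiac progenitors on a matrix of recombinant laminins, LN-521 and LN-221. The labels give the same matrix for all 5 groups, which are days 0, 4, 9, 11 and 20 with 3 libraries each, although the deposited sample table lists LN-521 alone for day 0. Undifferentiated day 0 cells grew in Nutristem. The differentiation media held B27 supplement, without insulin at first, with the GSK3 inhibitor CHIR99021 early and the Wnt inhibitor IWP2 after it. The labels do not give one account of the days of these additions. The study's methods place the first CHIR99021 on day 4, and do not say whether the day 4 libraries were taken before it. There is no untreated control at the later days, so day, medium and time in culture cannot be told apart, and a single cell line was used.

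A muscle myosin is a pair of heavy chains, which carry the motor, and each heavy chain binds an essential and a regulatory light chain at its neck. In the adult human heart the fast alpha heavy chain (MYH6) with MYL7 and MYL4 marks atrial muscle, and the slow beta heavy chain (MYH7) with MYL2 and MYL3 marks ventricular muscle. The atrial light chains are also made in the early ventricle, so that their presence alone does not name a chamber. Nonmuscle myosins work in every cell, in division, adhesion and cortical tension. RNA was measured as TPM, a level scaled to gene length and library total that can be compared between genes, and as read counts, which were used for the tests between days.

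MYH6 (chromosome 14 of GRCh38, 23381982 to 23408273, minus strand) and MYH7 (23412740 to 23435660, minus strand) lie 4466 bases apart and each carry a microRNA in an intron, as does MYH7B on chromosome 20 (34955810 to 35002437, plus strand). These are the myosin microRNAs, known to act on other muscle genes. Their mature sequences, from RefSeq on GRCh38.p14, are shown because they tie the 3 sarcomeric heavy chain genes together, with the seed (bases 2 to 8 from the 5′ end) in capitals.
hsa-miR-208a-3p, in MYH6: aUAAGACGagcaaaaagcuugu
hsa-miR-208b-3p, in MYH7: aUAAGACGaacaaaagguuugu
hsa-miR-499a-5p, in MYH7B: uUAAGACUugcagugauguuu
The MYH6 and MYH7 microRNAs share their seed and are identical at 19 of 22 bases. The seed of the MYH7B microRNA differs from theirs only at its last base, U in place of G.

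The promoters of MYH6 and of MYL7 (chromosome 7, 44138864 to 44141332, minus strand) are shown because these were the most abundant heavy and light chains of the later days. Each line holds the 250 bases before the RefSeq start (GRCh38.p14, minus strand, 5′ to 3′), chr14:23408274-23408523 for MYH6 and chr7:44141333-44141582 for MYL7. Capitals mark matches on either strand to the TATA box (TATAAA), the GATA site (GATAA), the MCAT element (CATTCC), the NKX2-5 site (TNAAGTG), the CArG box or the MEF2 site.
MYH6: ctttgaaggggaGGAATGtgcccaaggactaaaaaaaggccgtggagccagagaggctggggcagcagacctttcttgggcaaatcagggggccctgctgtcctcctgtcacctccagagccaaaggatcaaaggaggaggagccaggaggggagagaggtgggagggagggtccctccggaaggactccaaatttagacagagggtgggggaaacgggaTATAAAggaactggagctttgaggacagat
MYL7: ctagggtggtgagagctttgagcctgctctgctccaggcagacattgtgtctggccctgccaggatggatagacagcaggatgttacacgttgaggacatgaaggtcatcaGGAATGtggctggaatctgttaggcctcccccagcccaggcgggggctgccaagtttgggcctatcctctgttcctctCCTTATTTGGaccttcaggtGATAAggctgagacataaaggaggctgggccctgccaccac
The MYH6 window held a TATA box, beginning 30 bases before the start (position −30), and an MCAT match on the other strand at −238. The MYL7 window held an MCAT match on the other strand at −139, a CArG box at −61 and a GATA site at −41, none of which overlap. Of 35116 promoter windows of this length, 10.7% held the TATA box, 11.9% the MCAT element, 20.4% the GATA site and 1.16% the CArG box. The NKX2-5 site (8.73% of windows) and the MEF2 site (2.80%) had no match in either promoter. These are matches of letters, not binding sites.

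The libraries held 11990302 to 33469703 counts, and the 10 genes took 0.150% to 0.162% of them on day 0 and 0.658% to 2.38% on day 20. Marker sums set the libraries of day 0 and day 20 apart. The summed TPM of 5 pluripotency genes lay between 5691 and 7898 on day 0 and between 90.1 and 129 on day 20. That of 8 cardiomyocyte genes lay between 39.2 and 49.7 and between 1927 and 9538. On day 4 these sums lay between 6358 and 7749 and between 36.8 and 49.3, which did not set day 4 apart from day 0. The cardiomyocyte sums of day 11, between 1125 and 3466, overlapped those of day 20. The day 20 library of plate 6 had the least of the cardiomyocyte genes and the most of 7 fibroblast and mesenchymal genes, 24452 TPM against 3203 and 1212 in the libraries of plate 2 and plate 2_3. On day 11 these genes summed to 3420, 1247 and 7368 TPM in plates 2, 5 and 6, lowest in plate 5, where MYH6 was highest. A sum of 7 endoderm and epithelial genes lay between 2350 and 3201 TPM on day 11 and at 15619, 921 and 16401 TPM on day 20 in plate 2, plate 2_3 and plate 6, most of it AFP, a fetal liver and yolk sac protein, where it was high. The part of these other cells in the myosin levels was not tested. The day 20 library labelled plate 2_3 had an RNA integrity number of 6.1 and counts on 99.6% of 252 protein-coding genes that had at most 2 counts in all up to day 11, with a median of 7.19 reads per kb. At that density this background would make up 2.93% of its MYL2 counts and 3.63% of its MYH7B counts, and less for the other sarcomeric genes. One gene with no GENCODE v44 name took 20.0% of the TPM of day 0 replicate 3 and 17.0% of that of day 9 plate 2, which lowers every other TPM in those libraries. In such bulk samples, fewer cells of a type and less RNA per cell cannot be told apart.

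**Figure D1:**
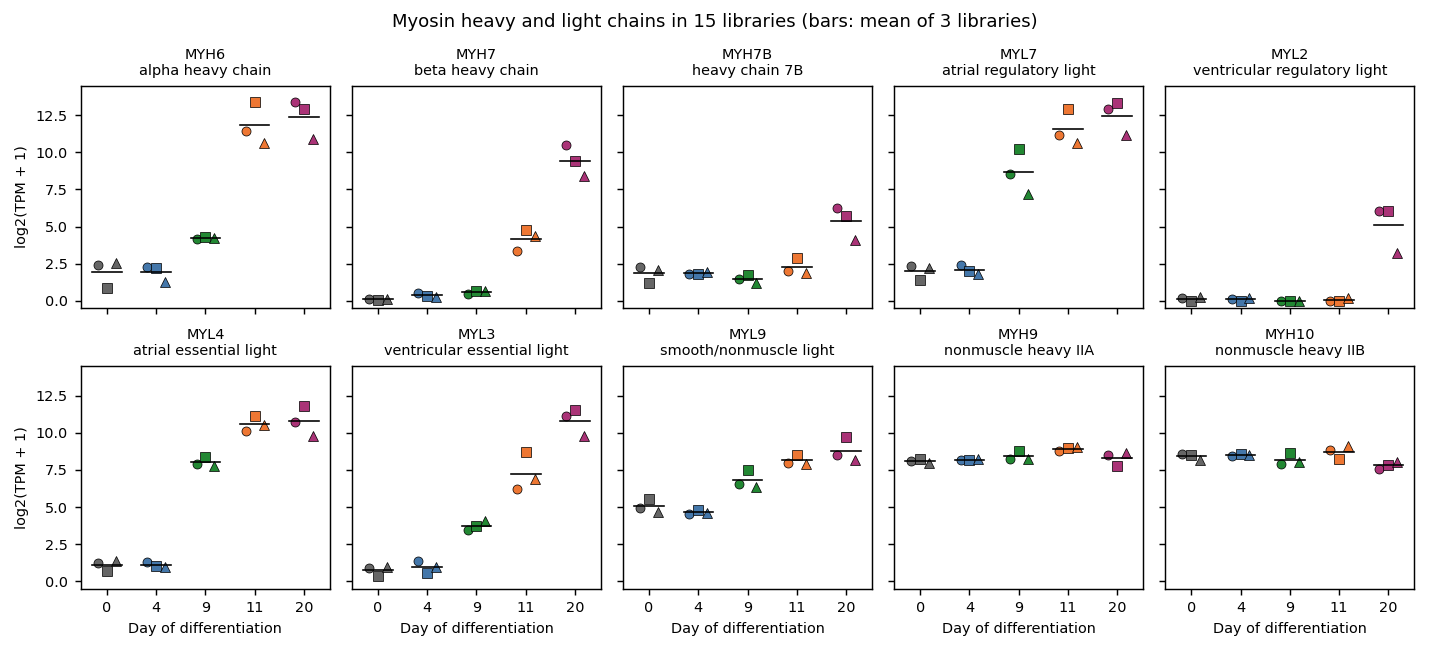
Level of each of the 10 genes as log2(TPM + 1), with day on the horizontal axis; circles, squares and triangles are the 3 libraries of a day and the bar is their mean. MYL4 and MYL7 were already high on day 9, MYH6 on day 11 and MYH7, MYH7B and MYL2 on day 20, while MYH9 and MYH10 stayed between 189 and 543 TPM.

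MYH6, the alpha heavy chain, stood at 4.31, 0.796 and 4.92 TPM in the day 0 libraries and at 3.83, 3.59 and 1.37 TPM on day 4. On day 9 it reached 17.0, 18.7 and 17.3 TPM, and the 3 libraries were nearly alike. The day 11 libraries of plates 2, 5 and 6 held 2745, 10863 and 1598 TPM, so that the highest was far above the others and every one was far above day 9. On day 20 the libraries of plate 2, plate 2_3 and plate 6 held 10790, 7924 and 1877 TPM. The range of day 20 lay within that of day 11. MYH6 ranked 5 among all genes where it was highest, in plate 5 of day 11.

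MYH7, the beta heavy chain of slow skeletal and ventricular muscle, was at or below 0.571 TPM in all 9 libraries up to day 9, with 1 to 24 counts each. On day 11 it held 9.30, 26.2 and 19.5 TPM and on day 20 1441, 683 and 336 TPM. All day 20 libraries lay above all day 11 libraries, and on both days MYH7 was below MYH6 in every library. MYH7B, an ancient striated muscle heavy chain, stood between 1.26 and 6.39 TPM in the 12 libraries up to day 11. On day 20 it held 73.6, 52.5 and 15.9 TPM, again above every earlier library.

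MYL7, the atrial regulatory light chain, stood between 1.65 and 4.31 TPM on days 0 and 4. Its day 9 libraries of plate 2, plate 6 and no plate number held 380, 1179 and 147 TPM, the widest spread of any of the genes on that day. It held 2348, 7820 and 1622 TPM on day 11 and 7918, 10128 and 2267 TPM on day 20, and in the library of plate 2_3 it ranked 1 and MYH6 ranked 2 among all genes. MYL2 (chromosome 12, 110910819 to 110921443, minus strand), the ventricular regulatory light chain, had 2 counts in all over the 3 day 0 libraries, 2 on day 4, none on day 9 and 1 on day 11. The 0 of 64820157 counts on day 9 allow up to 0.0463 CPM (counts scaled to library total), by the limit of 3 counts that a 0 allows, for counting error only. On day 20 MYL2 had 540, 348 and 51 counts, or 63.8, 65.1 and 8.41 TPM.

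MYL4 (chromosome 17, 47200446 to 47223679, plus strand), the atrial essential light chain, stood between 0.588 and 1.58 TPM on days 0 and 4. It held 243, 332 and 215 TPM on day 9, 1136, 2288 and 1473 TPM on day 11 and 1729, 3616 and 899 TPM on day 20. Days 9 and 11 did not overlap, and days 11 and 20 did. MYL3 (chromosome 3, 46835111 to 46882178, minus strand), the essential light chain of ventricle and slow skeletal muscle, stood between 0.265 and 1.60 TPM on days 0 and 4. It held 9.97, 11.98 and 15.4 TPM on day 9, 73.6, 413 and 115 TPM on day 11 and 2276, 3028 and 869 TPM on day 20. Each of these days lay above the one before it with no overlap.

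The nonmuscle genes moved far less. MYH9, the IIA heavy chain, ranged from 246 to 296 TPM on day 0, from 429 to 537 TPM on day 11 and from 220 to 404 TPM on day 20. MYH10, the IIB heavy chain, ranged from 295 to 386 TPM on day 0, from 300 to 543 TPM on day 11 and from 189 to 267 TPM on day 20. MYL9 held 29.7, 46.4 and 24.7 TPM on day 0 and 22.2, 26.9 and 23.4 TPM on day 4, then 92.1, 181 and 82.5 TPM on day 9. It stood between 243 and 368 TPM on day 11 and at 368, 832 and 287 TPM on day 20, so that MYL9 followed the days as the sarcomeric genes did while its nonmuscle heavy chains did not.

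By mean TPM the order on day 20 was MYH6, MYL7, MYL4, MYL3, MYH7, MYL9, MYH9, MYH10, MYH7B and MYL2. The libraries of each neighbouring pair in this order overlapped except those of MYH10 and MYH7B. On day 0 the order began with MYH10, MYH9 and MYL9, and no sarcomeric gene exceeded 4.92 TPM in any library.

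From day 0 to day 4, 7 of the 10 genes had enough counts to test. None of them passed an adjusted p under 0.05 in edgeR's quasi-likelihood test (Benjamini-Hochberg, 20964 genes), and 0.00% of all genes tested did in either direction. DESeq2 called none as well, and at an unadjusted p under 0.05 there was 1 of the 7, MYL9, with a log2 fold change of −0.53 and a standard error of 0.20. MYL9 was also the 1 gene of the 7 whose library-normalised counts did not overlap between the days, where 10.0% of all genes tested did not. The log2 fold changes of the sarcomeric genes tested, MYH6, MYH7B, MYL4 and MYL7, lay between −0.27 and 0.07.

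From day 4 to day 9, 5 of the 9 genes tested rose and none fell, where 24.3% of all genes tested rose and 24.7% fell. The days did not overlap for 7 of the 9, against 60.0% of all genes. The largest increases were those of the atrial light chains: MYL4 rose 231-fold (log2 fold change 7.85, standard error 0.23, edgeR adjusted p = 4.71e-07) and MYL7 167-fold (7.38, standard error 0.83, edgeR adjusted p = 0.00031). MYL3 rose with a log2 fold change of 3.57, MYH6 with 2.60 and MYL9 with 2.29, at edgeR adjusted p-values between 0.000156 and 0.000624. The beta heavy chain MYH7 (0.67, standard error 0.41) and MYH7B (−0.57, standard error 0.23) did not pass, nor did MYH9 and MYH10. The 5 calls held under all 14 alternatives, and without the day 9 library of plate 6 MYH7B and MYH10 also passed, as lower, at −0.72 and −0.42.

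From day 9 to day 11, 4 of the 9 genes tested rose and none fell, where 1.39% of all genes tested rose and 1.00% fell. The days did not overlap for 8 of the 9, against 24.1% of all genes. Both cardiac heavy chains were among them, MYH6 with a log2 fold change of 8.09 (standard error 0.87, edgeR adjusted p = 0.0147) and MYH7 with 5.19 (standard error 0.45, edgeR adjusted p = 0.0103). The essential light chains MYL3 (3.93, standard error 0.67) and MYL4 (2.58, standard error 0.29) rose with edgeR adjusted p-values of 0.034 and 0.0147. MYL7 stood at 2.77 with a standard error of 0.85 and did not pass (edgeR adjusted p = 0.153), and over the 15 alternatives its value ranged from 1.51 to 3.76. MYL9 did not pass either (1.24, adjusted p = 0.0786). The nonmuscle heavy chains stood at 0.46 and 0.51 with no call. Without the day 9 library of plate 2 none of the genes passed, as none of all genes did, and without the day 9 library of no plate number MYH7 alone did; the log2 fold change of MYH6 stayed between 6.84 and 8.52 under all 15 alternatives. This comparison and that of day 9 with day 4 share the day 9 libraries, as this and the next share those of day 11.

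From day 11 to day 20, 3 of 10 genes rose and none fell, where 1.12% of all genes tested rose and 0.435% fell. The days did not overlap for 6 of the 10, against 22.4% of all genes. These were the beta heavy chain MYH7 with a log2 fold change of 5.37 (standard error 0.73, edgeR adjusted p = 0.0218), MYH7B with 3.41 (standard error 0.60, edgeR adjusted p = 0.0392) and the ventricular regulatory light chain MYL2. From 1 to 939 counts, MYL2 rose 1031-fold in CPM (exact 95% interval of counting error 185 to 40768, edgeR adjusted p = 0.0173), and its fitted log2 fold change of 9.42 depends on the prior count. MYL2 passed the filter on low counts only through day 20, so a fall could not be called for it. The ventricular essential light chain MYL3 stood at 3.18 (standard error 0.72), with no overlap between the days, and did not pass (edgeR adjusted p = 0.0733). None of the atrial set passed: MYH6 stood at 0.30 (standard error 0.88), MYL7 at 0.60 (0.71) and MYL4 at 0.12 (0.48), and MYH6 and MYL4 had the other sign under some alternatives. MYH9 and MYH10 stood at −0.65 and −1.04, with no call and no overlap. Without any 1 of the 3 day 11 libraries no gene of the 10 passed, and over all genes at most 1 did. Without the day 20 library of plate 2_3, which carried the background reads, MYH7 and MYL2 passed and MYH7B did not, with a log2 fold change of 3.48 (edgeR adjusted p = 0.0649).

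**Figure D2:**
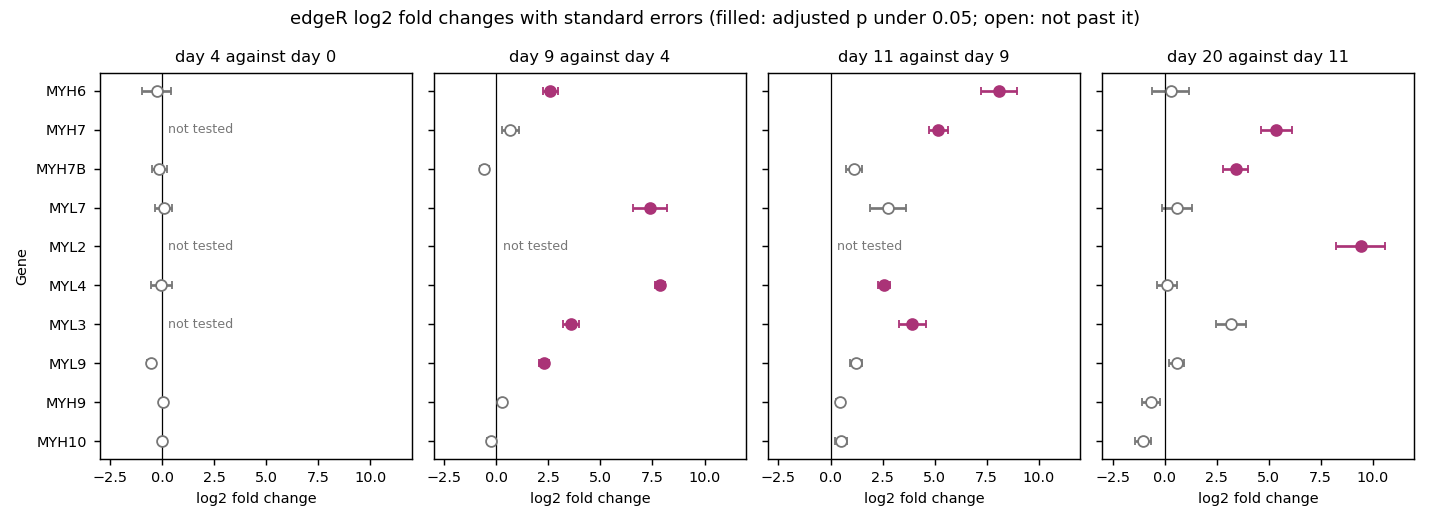
Log2 fold change of each gene between successive days, with its edgeR standard error; filled points passed an adjusted p under 0.05 and open points did not. MYL4 and MYL7 stand furthest right for day 9 against day 4, MYH6 for day 11 against day 9, and MYL2 and MYH7 for day 20 against day 11.

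Over the whole course, from day 0 to day 20, 8 of 10 genes rose, where 16.1% of all genes tested rose and 11.3% fell. The days did not overlap for 9 of the 10, against 46.7% of all genes. They were the 7 sarcomeric genes and MYL9 (log2 fold change 3.55, standard error 0.40, edgeR adjusted p = 0.0009), and they rose under all 13 alternatives. The largest was MYH7 with 13.43, from 7 counts over the day 0 libraries, and MYH6, MYL3, MYL4 and MYL7 lay between 10.50 and 11.32. MYL2 rose 560-fold in CPM (exact 95% interval of counting error 155 to 4631) and MYH7B with a log2 fold change of 3.82. MYH7, MYL2 and MYL3 passed the filter on low counts only through day 20, so a fall could not be called for them. MYH9 stood at 0.09 (standard error 0.39), and MYH10 at −0.83 (standard error 0.31, edgeR adjusted p = 0.0819), lower in all 3 day 20 libraries than in all 3 of day 0. Without the library of plate 2_3, MYH10 passed at −0.71 with an edgeR adjusted p of 0.04995.

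The atrial light chains MYL4 and MYL7 were high on day 9, before the heavy chains, whereas MYL2 had no counts on that day and MYL3 lay below MYH6 in each of its libraries. The summed TPM of MYL2, MYL3, MYL4 and MYL7 was 33.2, 70.5 and 19.7 times that of MYH6, MYH7 and MYH7B in the day 9 libraries. In the 12 other libraries this ratio lay between 0.707 and 1.98, and no such library overlapped those of day 9. Against the nonmuscle heavy chains, the sarcomeric ones made up 2.52% to 3.44% of heavy chain TPM on day 9. They made up 75.7%, 93.1% and 60.0% on day 11 and 95.7%, 95.03% and 76.9% on day 20. The lowest share of each of these days was in the library of plate 6.

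**Figure D3:**
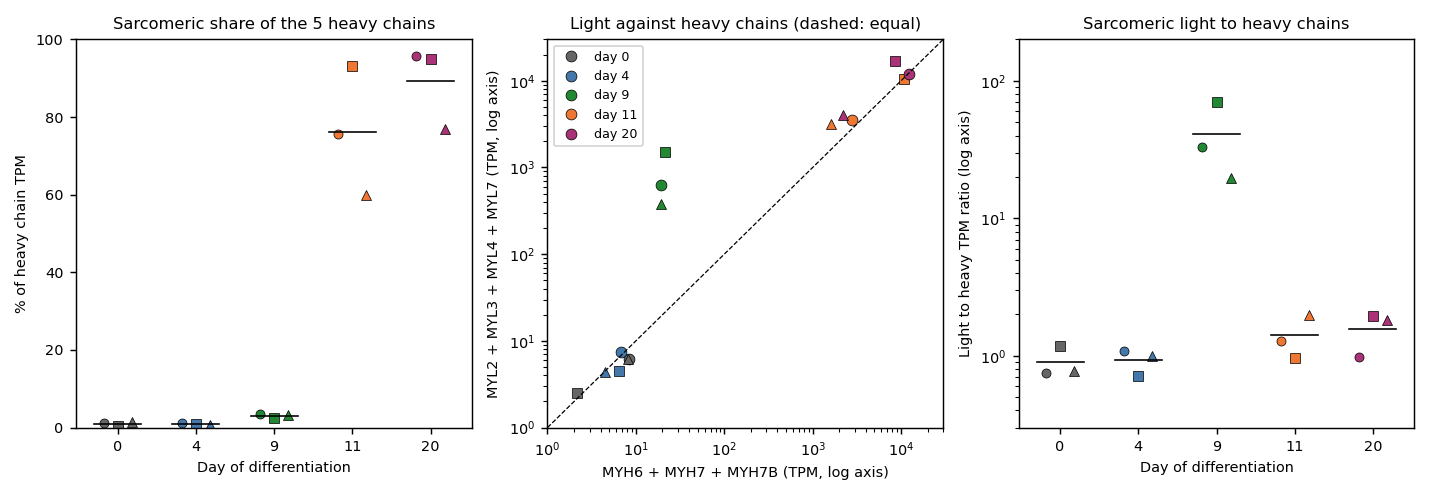
Left, share of MYH6, MYH7 and MYH7B in the TPM of the 5 heavy chains; middle, summed sarcomeric light chain TPM against summed sarcomeric heavy chain TPM on log axes, with a dashed line of equality; right, their ratio on a log axis, with bars at the mean of 3 libraries. The 3 day 9 libraries stand far above the line, at ratios from 19.7 to 70.5, and the 12 others lie near it on either side, between 0.707 and 1.98. The ratios of days 0 and 4 rest on low levels, at most 8.29 TPM of heavy chains and 7.40 TPM of light chains.

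The atrial and ventricular isoforms were then compared within each library, where the scaling of the library drops out. MYH7 made up 1.92% to 2.99% of MYH6 and MYH7 TPM on day 9, 0.338%, 0.241% and 1.21% on day 11, and 11.8%, 7.94% and 15.2% on day 20. On day 4 it made up 6.46% to 11.95%, but from only 7 to 23 MYH7 counts a library. MYL3 made up 3.49% to 6.69% of the essential pair on day 9, 6.08%, 15.3% and 7.27% on day 11, and 56.8%, 45.6% and 49.2% on day 20. MYL2 made up at most 0.00723% of the regulatory pair on day 11 and 0.800%, 0.639% and 0.370% on day 20. So on day 20 the ventricular form was close to the atrial form in amount for the essential light chain, was below it for the heavy chain in every library, and was below 1% for the regulatory light chain.

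The mean log2 ratio of MYH6 to MYH7 differed by −4.77 between day 20 and day 11, that of MYL7 to MYL2 by −7.12, and that of MYL4 to MYL3 by −3.39. In each case the 3 libraries of day 20 lay below the 3 of day 11. The exact permutation test, two-sided, gave p = 0.1 each, which no 3 against 3 can go below, or an adjusted p of 0.171 over the 24 ratios tested. The size for MYL7 to MYL2 depends on the 0.1 TPM added before taking the ratio. The MYH6 to MYH7 ratio went the other way from day 9 to day 11, up by 2.78 (exact permutation p = 0.1). MYH10 made up 54.5% to 59.0% of the nonmuscle pair on day 0 and 33.8%, 51.4% and 39.8% on day 20, and the log2 ratio of MYH9 to MYH10 was 0.85 higher on day 20 (exact permutation p = 0.1).

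**Figure D4:**
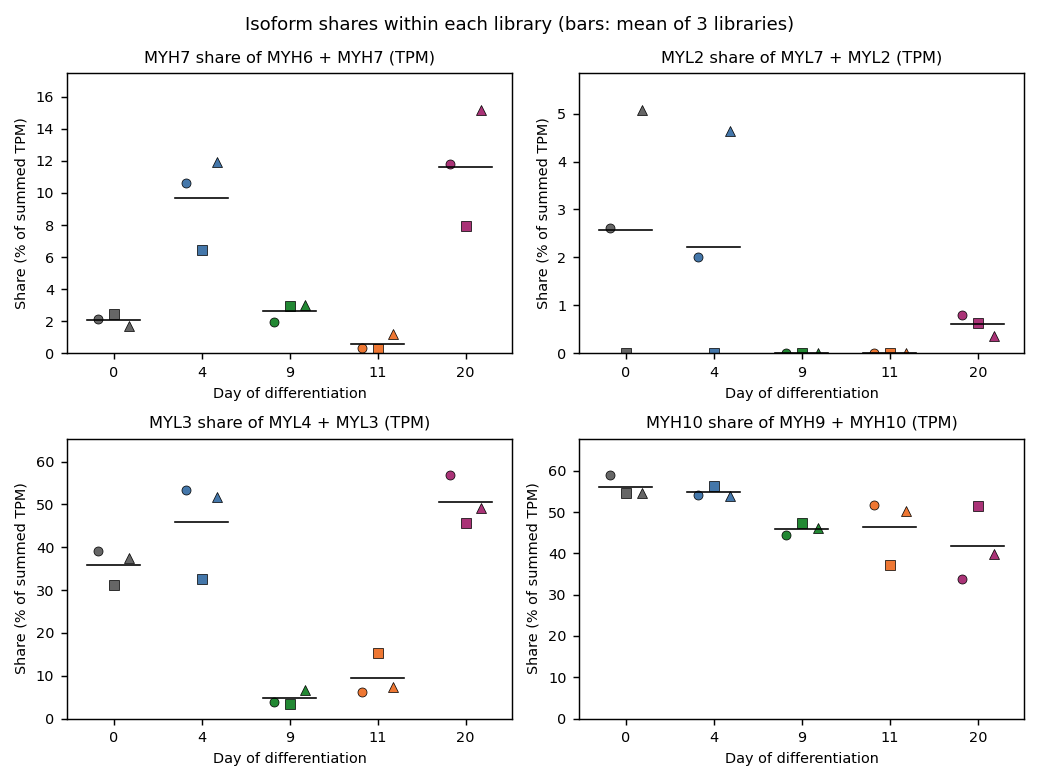
Share of the second isoform in the summed TPM of each pair, by library and day, each panel on its own axis from 0, with bars at the mean of 3 libraries. The MYL3 share stands between 45.6% and 56.8% on day 20 and the MYH7 share between 7.94% and 15.2%; shares on days 0 and 4 rest on few counts of the sarcomeric genes.

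MYH6 and MYH7 are near-identical over part of their length, and 246 of 5791 windows of 150 bases in the MYH6 transcript (4.25%) occur unchanged in MYH7, with a longest shared run of 395 bases. How the counting treated such reads is not given in the sources used here, so the low MYH7 levels of days 9 and 11 are uncertain where MYH6 is high. None of the other pairs compared shared such a window (MYH6 with MYH7B, MYL7 with MYL2, MYL3 with MYL4, MYH9 with MYH10 and MYL9 with MYL2). Exons of MYH7B overlap those of GSS and TRPC4AP on the other strand by 138 and 34 bases, and those of MYH10 overlap NDEL1 by 72 bases. The kit keeps the strand, but the strand setting of the counting was not found in the sources used here.

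Reads on the intronic microRNA genes, which in such libraries do not measure the mature microRNA, were read beside their hosts. MIR208A, in MYH6, had 1 count in all up to day 9, then 14, 109 and 9 counts on day 11 and 49, 60 and 1 on day 20. The highest day 11 count was in the library of plate 5, where MYH6 was highest, and the lowest day 20 count in that of plate 6, where MYH6 was lowest. The highest day 20 count was in the library of plate 2_3, which carried background reads, while MYH6 was highest in that of plate 2. MIR208B, in MYH7, had 1 count in all up to day 11 and 5, 1 and 2 counts on day 20, and MIR499A, in MYH7B, had 0 to 3 counts in every library. The hairpins are short, and these counts are too few to compare the MIR208B or MIR499A libraries.

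Against the summed TPM of the 8 cardiomyocyte genes of the same library, a ratio chosen after the data were seen, MYH7 stood at 0.00725, 0.00757 and 0.0173 on day 11 and at 0.195, 0.0716 and 0.174 on day 20. MYL3 stood at 0.0574, 0.119 and 0.103 on day 11 and at 0.308, 0.317 and 0.451 on day 20. So the day 20 libraries of these genes were above those of day 11 also relative to other cardiomyocyte genes, plate 6 included. MYH7B was also above day 11, at 0.00998, 0.00550 and 0.00826 on day 20, but overlapped day 9, at 0.0138, 0.0111 and 0.00981. MYL7 went from 1.83, 2.26 and 1.44 on day 11 to 1.07, 1.06 and 1.18 on day 20, with no overlap. MYL4 went from 1.90, 1.59 and 1.67 on day 9 to 0.887, 0.660 and 1.31 on day 11 and 0.234, 0.379 and 0.467 on day 20. MYH6 went from 0.133, 0.0900 and 0.135 on day 9 to 2.14, 3.13 and 1.42 on day 11. On day 20 MYH6 stood at 1.46, 0.831 and 0.974, overlapping day 11 in the library of plate 2 and below it in the others.

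The partners of myosin were read from lists of genes. Of 12 myosin binding proteins and chaperones, 9 were tested from day 4 to day 9, and 3 rose and 2 fell, shares near those over all genes at this step (24.3% and 24.7%). UNC45B, the striated muscle myosin chaperone, rose with a log2 fold change of 7.88, SMYD1, a methyltransferase needed for sarcomere assembly, with 6.38, and MYOM2, an M-band protein, with 1.43, while MYBPC2 and HSP90AA1 fell by 2.82 and 0.81. UNC45B and SMYD1 rose at this step with the atrial light chains. At the next step, where 1.39% of all genes rose, 5 of 10 did: MYBPC3, the cardiac myosin binding protein C, with 7.67, MYOM1 with 6.09, MYOM2 with 4.08, UNC45B with 2.78 and SMYD1 with 2.72. MYBPC3 stood between 0.601 and 1.04 TPM on day 9 and at 76.8, 383 and 78.3 TPM on day 11, highest in the library of plate 5 as MYH6 was. Between days 11 and 20 none of 11 passed in edgeR, and 5 did at an unadjusted p under 0.05.

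Of 15 kinases and phosphatase subunits acting on myosin light chains, 14 were tested from day 4 to day 9, and 3 rose and 4 fell, again near the shares over all genes (24.3% and 24.7%). MYLK3, the cardiac light chain kinase, rose with a log2 fold change of 6.24, MYLK4 with 2.03 and PPP1CB, a catalytic subunit, with 0.56, while MYLK, the smooth muscle kinase, fell by 0.98, PPP1R14B by 0.79, CDC42BPA by 0.71 and ROCK1 by 0.40. At the next step PPP1R12B, a targeting subunit of the myosin phosphatase, and PPP1R14C, a phosphatase inhibitor, rose with 3.61 and 6.78, and none of 15 fell (1.39% and 1.00% over all genes). MYLK3 stood between 45.9 and 51.8 TPM on day 9, and MYLK between 4.24 and 6.52 TPM. Between days 11 and 20 none of 15 passed, nor did any at an unadjusted p under 0.05 in edgeR.

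The other heavy chains of the class stayed at or below 23.7 TPM in every library. Of 9, 5 were tested from day 4 to day 9 and 3 fell, where 24.7% of all genes did: the skeletal MYH2 by 4.42 and MYH3 by 0.79 and the nonmuscle MYH14 by 1.85. MYH14 was the only one of them above 10 TPM on day 0, at 14.6 to 21.5 TPM. MYH11, the smooth muscle heavy chain, rose from day 9 to day 11 with a log2 fold change of 2.25, to 2.44, 6.25 and 2.75 TPM. MYH4, a fast skeletal heavy chain, passed from day 0 to day 20 with 9.02, at 3.11, 20.0 and 1.83 TPM on day 20, highest in the library of plate 2_3. Of 8 other light chains, MYL6B and MYL11 rose from day 4 to day 9 with 0.46 and 1.61, being 2 of 6 tested where 24.3% of all genes rose, and none passed at the later steps. MYL6 and MYL12B, which pair with nonmuscle myosin, stood between 198 and 664 TPM and between 169 and 402 TPM in all libraries.

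Of 7 smooth muscle markers, 5 rose from day 4 to day 9, as MYL9 did, where 24.3% of all genes rose. From day 9 to day 11, 4 of 7 rose, where 1.39% of all genes did, and MYL9 did not pass. Their summed TPM lay between 40.0 and 65.2 on days 0 and 4, between 125 and 231 on day 9, between 649 and 1252 on day 11 and between 488 and 704 on day 20, when the mean of MYL9 stood above that of day 11 with overlapping libraries. MYH11 was the lowest of them in every day 20 library, at 1.56, 12.5 and 0.863 TPM in plate 2, plate 2_3 and plate 6. Of the skeletal muscle markers, the defining regulators MYOD1, MYOG, MYF5, MYF6 and PAX7 stood at or below 2.501 TPM in every library other than day 20 plate 2_3, where they stood between 2.96 and 8.35 TPM, while ACTA1 and CKM, which heart muscle also expresses, rose from day 9 to day 11. The part of smooth muscle cells in the MYL9 level was not tested.

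Genes other than myosins, from a list of atrial and a list of ventricular genes, were set beside the isoforms. A rise of a gene on either list does not by itself name a chamber. From day 4 to day 9, 24.3% of all genes rose and 24.7% fell. Of 7 genes tested on the atrial list, 5 rose, BMP10 with a log2 fold change of 11.22, NR2F1 with 9.30, TBX5 with 9.20, NR2F2 with 6.39 and KCNJ3 with 4.74. Of 8 ventricular genes, HAND1, NPPB, IRX3 and LBH rose with 8.70, 7.92, 2.90 and 0.64, and IRX4 fell by 0.85. NR2F1, NR2F2, TBX5, BMP10, HAND1 and NPPB passed the filter on low counts only through day 9, so a fall could not be called for them. From day 9 to day 11 neither list had a call. At an unadjusted p under 0.05 in edgeR there were 6 of 9 atrial and 3 of 8 ventricular genes.

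From day 11 to day 20, 2 of 8 ventricular genes rose, where 1.12% of all genes did, and 0 of 10 atrial genes passed (2 at an unadjusted p under 0.05 in edgeR). IRX4, a ventricular transcription factor, stood at 4.06, 16.6 and 5.84 TPM on day 11 and at 152, 248 and 68.7 TPM on day 20 (log2 fold change 3.94, standard error 0.62, edgeR adjusted p = 0.0303). HEY2, a factor of the compact ventricle, stood at 16.3, 21.8 and 9.09 TPM and then at 150, 188 and 51.9 TPM (2.87, standard error 0.48, edgeR adjusted p = 0.0356). Both rose at the step at which MYH7 and MYL2 did. On day 20 both were lowest in the library of plate 6, as were MYH7 and MYL2. The atrial MYH6, MYL7 and MYL4 were lowest there too, at 1877, 2267 and 899 TPM, as was the sum of the cardiomyocyte genes. The median log2 fold change was 0.26 over the ventricular list and −0.16 over the 10 atrial genes, beside 0.07 over all genes tested. On the ventricular list HAND1 and NPPB were lower by mean TPM, from 598 to 290 and from 291 to 217, with no call. IRX3, IRX5, KCNJ2 and LBH were higher by mean TPM, also with no call. The lists were not tested against each other.

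From day 0 to day 20, where 16.1% of all genes rose and 11.3% fell, 8 of 11 binding proteins and chaperones tested rose and 1 fell. MYBPC3 rose with a log2 fold change of 10.39, SMYD1 with 10.11, UNC45B with 9.58 and MYOM1 with 8.87, beside MYBPHL, MYBPH, MYOM2 and MYOM3 with 2.44 to 4.81, and HSP90AA1 fell by 1.31. MYBPHL, MYBPH and MYOM3 were still low on day 20, at means of 3.31, 3.77 and 2.29 TPM. They were highest in the library of plate 2_3, which carried background reads, at 5.99, 7.49 and 5.04 TPM. Of 14 kinases and phosphatase subunits, MYLK3, PPP1R14C, PPP1R12B and MYLK4 rose with 7.89, 7.72, 4.34 and 3.22, and MYLK and PPP1R14B fell by 1.63 and 1.38. The 10 atrial genes reported here rose, namely NPPA, NR2F1, NR2F2, TBX5, SLN, KCNA5, KCNJ3, GJA5, BMP10 and MYBPHL, with 2.90 to 10.77. Of the 8 ventricular genes, HAND1, NPPB, IRX4, IRX3, LBH and HEY2 rose, with 2.47 to 8.83. Both chamber lists therefore held genes that rose over the course, as the atrial and ventricular myosins did. NPPA, NR2F1, NR2F2, TBX5, SLN, BMP10, MYBPHL, HAND1 and NPPB passed the filter on low counts only through day 20. A fall could not be called for these genes.

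**Figure D5:**
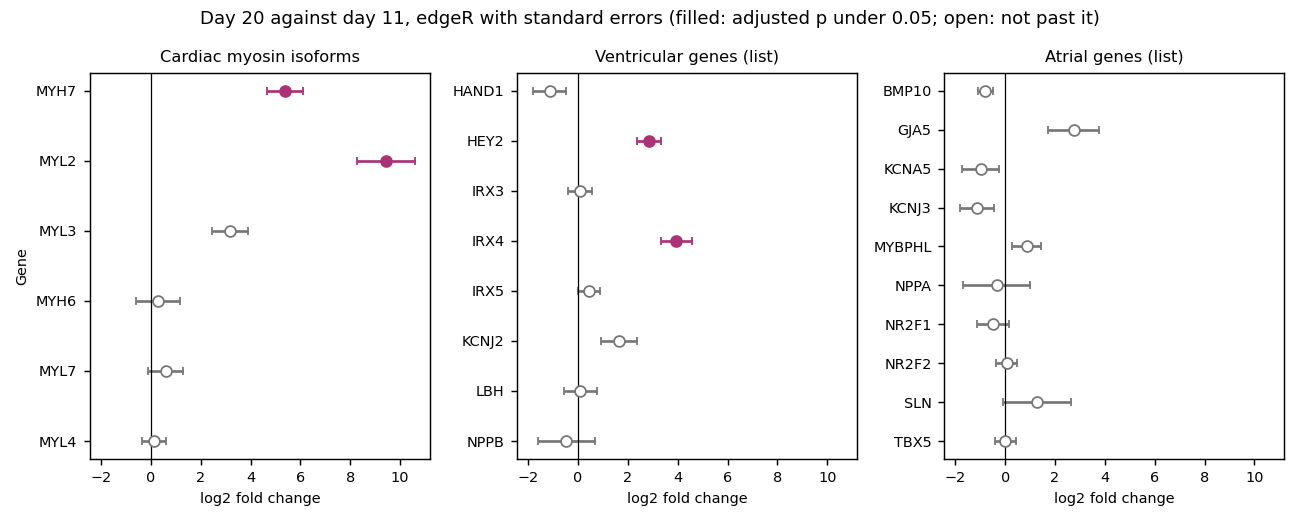
Log2 fold change from day 11 to day 20, with its edgeR standard error, for 6 cardiac myosin isoforms and for the 8 ventricular and 10 atrial genes reported here; filled points passed an adjusted p under 0.05. MYH7, MYL2, IRX4 and HEY2 are filled, and none of these atrial genes is.

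Genes whose level followed that of MYH6, MYL2 or MYL9 most closely were ranked by Pearson's r of log2(TPM + 1) over the 15 libraries among 20659 genes, as a description, since the libraries of a day move together. For MYH6 they were TGM2 (r = 0.989), XIRP1 (0.984) and DENND5B (0.984). For MYL2 they were S100A8 (0.998), TXLNB (0.996) and MLIP (0.994), and S100A8 was at 0 TPM in all libraries up to day 11 and at 11.3 ± 6.53 TPM (SD, n = 3) on day 20. For MYL9 they were CPEB4 (0.983), SVIL (0.983) and AFF3 (0.982). Among the 10 genes themselves, MYH6 stood nearest to MYL3 (r = 0.957) and furthest from MYH10 (−0.252), and MYL9 stood at 0.970 with MYL7.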

How the data were processed

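Bulk RNA-seq of H1 cells was analysed from the deposited tables, with 3 libraries for each day of the labels. The study's methods name day 7 and not day 9 for bulk libraries. The authors aligned paired-end reads of 150 bases from ribosomal-RNA-depleted total RNA to GRCh38 (Ensembl release 79) with STAR 2.5.2b, counted them with featureCounts 1.5.1 and deposited raw counts per gene without mitochondrial genes and those of the rRNA biotype. The authors computed TPM from these counts with a gene length that is not given. RNA integrity numbers (a score), the fraction of reads mapped uniquely and the sequencing lane come from the deposited sample table.

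Each pair of days was fitted on its own 6 libraries by edgeR 4.0.16 under R 4.3.3, with TMM factors, robust quasi-likelihood and the filter filterByExpr (count 10, total 15). A gene with few counts on 1 day could pass this filter through the other day alone. Such a gene could be called only as higher on that other day. Tests were two-sided and called at 0.05 after Benjamini-Hochberg adjustment. The standard error is the log2 fold change divided by the square root of F. Ratios of genes are mean log2 ratios after adding 0.1 TPM, compared by exact permutation with scipy 1.17.1 under Python 3.11.15. Scripts were tested on simulated counts. Coordinates and symbols come from GENCODE v44 and sequences from RefSeq. The p-values measure the spread between replicates that the labels call biological. Libraries held 11990302 to 33469703 counts (median 22867831), and intervals and limits cover counting error only.

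The genes and lists were chosen with earlier results of these data known. All 10 genes are given by library. From pathway and chamber lists of up to 12 genes each gene past the threshold is named, and from longer lists at most 4 in each direction by size of change. One further gene of the atrial list is not reported here and enters no count of that list. For MYH6, MYL2 and MYL9 the 3 genes of highest correlation are named, among genes with 10 TPM in at least 1 library. Alternatives were relative log expression factors, library size alone, DESeq2 1.42.0, no filter, all 15 libraries in one fit, limma 3.58.1 on log2 TPM after adding 1 or 0.1, each library left out, the plate or lane as a block, and for ratios 1 TPM added or counts.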

Additional observations from a re-analysis of the deposited data

How the results depend on the processing

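Over 630 settings of single genes, 555 kept the direction and the side of the threshold, 30 lost the call, 13 gained it and 32 had the other sign. The genes that rose from day 4 to day 9 and from day 0 to day 20 did so under every alternative. From day 11 to day 20, 5 of the 10 genes passed with all 15 libraries in one fit, and leaving out each library in turn gave 0 to 3. From day 9 to day 11, leaving out each library gave 0 to 4 (0 without plate 2 of day 9). The MYL7 to MYL2 difference was −4.18 with 1 TPM added. MYH6 lost its call from day 9 to day 11 under 3 of 15 alternatives and MYL3 under 7. From day 11 to day 20 MYH7 passed under 11 of 15, MYL2 under 11 and MYH7B under 6, and MYL3 under 2. The cause was not tested.

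Values of the other sign belong to genes that were not past the threshold. From day 0 to day 4, limma with 0.1 TPM added gave 0.0363 for MYH6, 0.0608 for MYH7B, 0.0114 for MYL4 and 0.0581 for MYH10. With 1 TPM added it gave 0.0178 for MYH7B and 0.0579 for MYH10, which stood at 0.00291 with no filter and 0.000541 in one fit of all libraries. Leaving out libraries gave −0.76 to 0.29 for MYH6, −0.50 to 0.10 for MYH7B, −0.42 to 0.31 for MYL4, −0.27 to 0.30 for MYL7, −0.0202 to 0.11 for MYH9 and −0.0502 to 0.00749 for MYH10. For day 20 against day 11 it gave −0.40 to 1.46 for MYH6 and −0.31 to 0.41 for MYL4, and MYL4 stood at −0.0543 in DESeq2 and −0.0773 with no filter. From day 0 to day 20 MYH9 stood at −0.0637 with no filter and at −0.19 to 0.40 with libraries left out.

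Counts of all genes moved more. For day 11 against day 9 they were 495, against 1595 in DESeq2, 1016 with no filter and 205 and 165 in limma. For day 20 against day 11 they were 332, against 1997 in DESeq2, 3132 in one fit and 90 and 76 in limma. One fit gave 6209 and not 10406 from day 4 to day 9, and 10785 and not 6027 from day 0 to day 20. No filter gave 64 and not 0 from day 0 to day 4. Library size alone moved the median of all genes from day 0 to day 20 from 0.11 to 0.23. Libraries of different days share a plate number or a lane, but nothing says that these pair the cultures. Same-numbered libraries deviated together with correlations of −0.18 to 0.38 by plate and −0.47 to 0.36 by lane. On day 20 the libraries labelled plate 2 and plate 2_3 were taken to share a plate number. The labels call the replicates biological, and whether these were separate cultures was not tested. With the plate number as a replicate block, 0 of the 10 genes passed from day 11 to day 20 (3 of all genes) and 6 from day 9 to day 11 (1971 of all genes). With the lane as a block, 2 passed from day 11 to day 20 (137 of all genes), 4 from day 9 to day 11 (698) and 5 from day 4 to day 9 (9196).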
